A study of Mus musculus with 8 samples.

Results

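Inflammatory monocytes marked by *Vcan* and *F13a1* were described here in a single-cell RNA-seq data set of leukocyte-enriched mouse kidney. A cell was a member when its counts of *Vcan*, *F13a1*, *Chil3*, *Fn1*, *Ly6c2* and *Ccr2* summed to at least 6 and exceeded its summed counts of 6 nonclassical monocyte genes (*Ace*, *Adgre4*, *Treml4*, *Cd300e*, *Ear2* and *Ceacam1*). Members also had at most 2 counts of the complement genes *C1qa*, *C1qb* and *C1qc*, at most 2 of the dendritic cell genes *Cd209a* and *Clec10a*, and at most 1 of *Flt1*, *Pax5*, *Themis* and *Slc12a1*, which mark endothelium, B cells, T cells and the loop of Henle. Of 90855 cells within the limits on genes, counts and mitochondrial share, 7131 (7.85%) were members. Since measured counts of these genes chose the members, their levels are given as a description and were not tested.

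Classical monocytes leave the bone marrow through the chemokine receptor CCR2, enter injured tissue within a day or so of damage and mature there into macrophages or monocyte-derived antigen-presenting cells. Versican (*Vcan*), fibronectin (*Fn1*) and the transglutaminase coagulation factor XIII A (*F13a1*) are matrix and clotting proteins that such cells make while they are still close to the blood monocyte. In wounds and tumors, monocytes short of oxygen turn to glycolysis through the transcription factor HIF-1α, and such cells also make factors that act on vessels and matrix. SYK is a cytosolic tyrosine kinase that carries signals from Fc receptors, C-type lectins and integrins in myeloid cells, and entospletinib is a small-molecule inhibitor of it.

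The study compared C57BL/6 mice without injury (control) with mice given ischemia-reperfusion injury (IRI) of the left kidney and either vehicle or entospletinib, killed at day 1, 7 or 14. Entospletinib or vehicle (DMSO) was given into the peritoneum shortly before the injury. Mice killed at day 1 received nothing more, and for the later days entospletinib was repeated until the end. Each of the 7 conditions was 1 pool of 3 mice, so a difference between 2 conditions has no replicate of animals behind it and was not tested. Every condition was spread over 8 sublibraries, which are technical portions of the same pool. Standard deviations (SD) given below are over these 8 sublibraries, and exact 95% intervals cover counting error only.

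The 7131 members held 215 control cells, 4204, 609 and 669 cells of vehicle-treated mice at day 1, 7 and 14, and 1019, 307 and 108 cells of entospletinib-treated mice at the same days. Their summed counts ran from 227771 at entospletinib day 14 to 22224116 at vehicle day 1. The median member had 4383 counts in control and 1969 at entospletinib day 14, with the other conditions between 3555 and 4968. Levels in the entospletinib day 14 pool therefore rest on the fewest and shallowest cells, and levels in control on the second fewest. Barcodes are made of wells, and 13712 well combinations occurred in more than 1 sublibrary, where they were counted as separate cells.

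The label held for vehicle day 1 and less well for control and the later days. Fibronectin gave 38.0% of the summed counts of the 6 monocyte genes at vehicle day 1, *Vcan* 23.7%, *F13a1* 17.5%, *Ccr2* 11.5% and *Chil3*, a chitinase-like protein of young monocytes, 8.72%. In control members *Ccr2* alone gave 45.8% and *Vcan* 8.77%. At vehicle day 7 *Fn1* gave 67.1% and *Vcan* 7.86%. At vehicle day 14 *Fn1* gave 49.8%, *Ccr2* 34.0%, *F13a1* 9.63% and *Vcan* 5.12%. *Vcan* gave 8.41% at entospletinib day 7 and 8.01% at entospletinib day 14. At least 1 count of the dendritic cell markers *Clec9a*, *Xcr1*, *Flt3* and *Zbtb46* was seen in 35.3% of control members, 27.5% of vehicle day 14 members and 30.3% of entospletinib day 7 members, against 7.52% at vehicle day 1, 12.2% at vehicle day 7, 7.26% at entospletinib day 1 and 8.33% at entospletinib day 14. Summed over *Clec9a*, *Xcr1* and *Wdfy4*, markers of the cross-presenting subset stood at 2201 CPM (counts scaled to the same total of 1000000 in each condition) in control, 1578 at entospletinib day 7 and between 334 and 1153 in the other conditions. More than 1 count of the stromal markers *Col1a1*, *Col1a2*, *Col3a1* and *Cald1* was found in 6.88% of members at vehicle day 14 and in at most 1.40% elsewhere. Results are therefore also given without members that carried dendritic or more than 1 stromal marker count, a stricter set that leaves out 35.8% of control members and 7.80% of vehicle day 1 members. Reads of *Ly6c2* can be shared with its near-identical neighbor *Ly6c1*, so its level is uncertain.

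**Figure D1:**
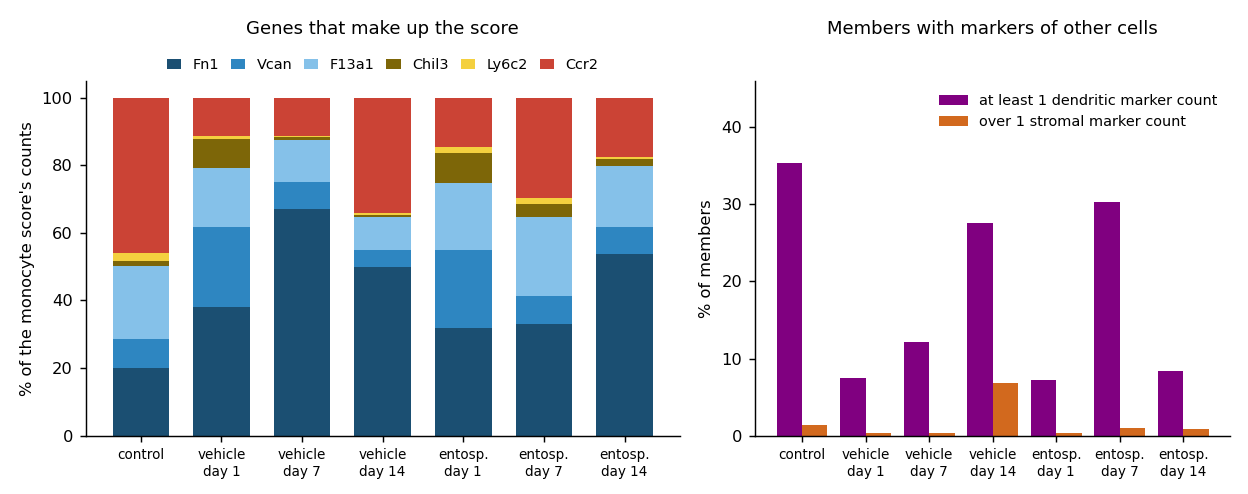
Left, the percentage of the summed monocyte counts given by each of the 6 genes in each condition (stacked bars). Right, the percentage of members with at least 1 dendritic cell marker count (purple) or more than 1 stromal marker count (orange); *Ccr2* makes up 45.8% of the control bar, and the stromal bar reaches 6.88% at vehicle day 14.

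Pooled over conditions, cells near the threshold were less monocyte-like than the rest. The 1067 members with a sum of 6 or 7 had 1399 CPM of *Lyz2* (lysozyme), 1128 CPM of *Thbs1* and 212 CPM of *Clec9a*, and the 1779 cells just outside, with a sum of 4 or 5, had 919, 749 and 220 CPM. In the 6064 members with a sum of at least 8 the same genes stood at 2646, 4178 and 22.3 CPM. The mix of conditions differed between these bands, which were not compared within a condition. A sum of 6 or 7 was found in 43.3% of control and 8.25% of vehicle day 1 members. Among genes the rule did not use, those that stood highest in members relative to all other cells were the acute-phase protein *Saa3* (15.6-fold), the metalloproteinase *Mmp19* (13.6-fold), podoplanin (*Pdpn*, 8.19-fold), coagulation factor X (*F10*, 6.98-fold), extracellular matrix protein 1 (*Ecm1*, 6.52-fold) and thrombospondin 1 (*Thbs1*, 3810 against 608 CPM, 6.27-fold). These ratios are over all conditions pooled, of which vehicle day 1 gave 4204 of the 7131 members. They come from the same cells that the rule chose and are a description.

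The share of inflammatory monocytes was lowest in control among the vehicle and control pools, stood at its peak at vehicle day 1, and was lower with entospletinib at every day. Members made up 1.92% of control cells (SD 0.41 over 8 sublibraries; exact 95% interval 1.67 to 2.19), 18.7% at vehicle day 1 (SD 1.30; 18.2 to 19.2), 9.97% at vehicle day 7 (SD 1.33) and 3.88% at vehicle day 14 (SD 0.24). With entospletinib they made up 7.26% at day 1 (SD 0.34; 6.83 to 7.70), 4.04% at day 7 (SD 0.66) and 0.889% at day 14 (SD 0.28). From the lowest level to the highest the order was entospletinib day 14, control, vehicle day 14, entospletinib day 7, entospletinib day 1, vehicle day 7 and vehicle day 1. Vehicle day 14 and entospletinib day 7 lay within each other's sublibrary spread.

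Vehicle day 1 was 9.74-fold above control, and entospletinib stood 2.58-fold below vehicle at day 1 (log2 ratio -1.37, SD 0.13), 2.47-fold below at day 7 (-1.30, SD 0.31) and 4.36-fold below at day 14 (-2.12, SD 0.47). All 8 sublibraries had the same direction in each of these. Over the 3 same-day pairs the mean log2 ratio was -1.60, and the exact two-sided sign-flip permutation test gave p = 0.25, the smallest value that 3 pairs can give. Entospletinib day 14 was also the shallowest pool, where 54.3% of cells had under 1000 counts. At day 14 the ratio was -0.94 among cells with at least 1000 counts, thinned to that depth and held to a threshold of 2 counts, which kept 5547 of the 12144 entospletinib cells. It was -0.43 when the threshold was 0.2% of a cell's counts instead of 6 counts. The order of the lowest conditions turned as well. Entospletinib day 14 stood at 6.33% against 3.87% in control after thinning and at 2.94% against 1.17% with the 0.2% threshold, so its place below control held with fixed thresholds of 4, 6 or 10 counts and turned under both settings that take depth into account. After thinning vehicle day 14, at 12.1%, also stood above entospletinib day 7 (8.81%) and day 1 (11.7%). At day 7 the depths differed the other way, with 0% of entospletinib and 15.5% of vehicle cells under 1000 counts, and the ratio after the same thinning and threshold was -1.11. A share is of the sorted cells, and a lower share of monocytes cannot be told apart from a higher share of other cells.

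Other myeloid classes, defined by the same kind of rule, differed from one another at day 1. Nonclassical monocytes, which patrol the vessel wall, made up 5.05% of cells with vehicle and 5.10% with entospletinib (log2 ratio 0.01, higher in 3 of 8 sublibraries). At day 7 they made up 0.442% and 0.789% (27 and 60 cells), and at day 14 0.452% and 0.189% (78 and 23 cells). Macrophages with C1q genes stood at 9.05% and 15.3% at day 1, at 10.4% and 11.5% at day 7 and at 12.3% and 1.88% at day 14. The day 14 difference rested on the threshold of 6 counts. With 0.2% of a cell's counts as threshold the day 7 log2 ratio was 0.93 in place of 0.14, and the day 14 difference turned, to 12.5% with vehicle and 15.4% with entospletinib, and after thinning to 1000 counts with a threshold of 2 the day 14 shares were 20.0% and 17.0%. Neutrophils stood at 32.0% and 15.0% at day 1, at 11.7% and 1.24% at day 7 and at 3.81% and 0.189% at day 14. Shares of neutrophils and nonclassical monocytes were not recounted at equal depth. Because shares within a pool sum to a fixed total, these values are not independent of each other.

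**Figure D2:**
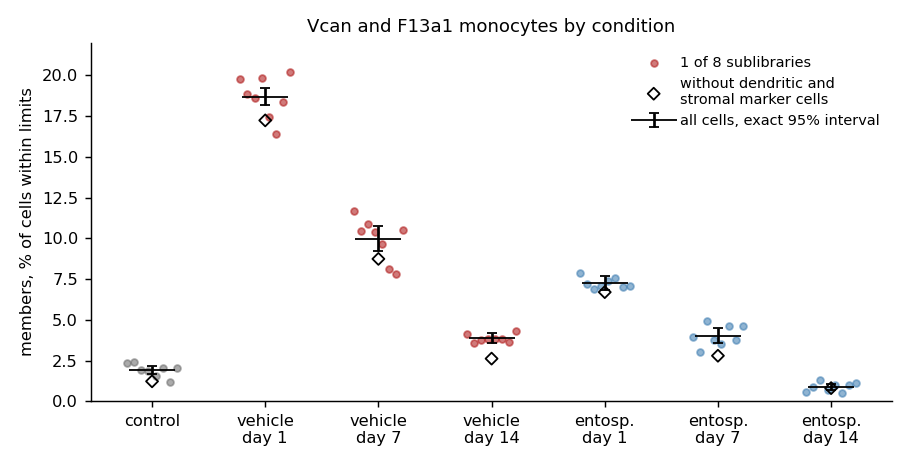
Inflammatory monocytes as a percentage of cells within limits (vertical axis) in each condition. Dots are the 8 sublibraries, black marks the pooled share with its exact 95% interval, and diamonds the share without members that carried dendritic or stromal markers. Vehicle day 1 stands at 18.7% and entospletinib day 14 at 0.889%.

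For expression, counts were summed over the members of a condition and scaled to CPM. A gene entered a comparison when its mean over both conditions was at least 100 CPM, and its ratio is given on the log2 scale relative to the median of all tested genes, which is 0 by construction. A gene counted as past 2-fold when this relative ratio was above 1 or below -1. Genes that pass the level filter only through the condition where they are high can be counted in 1 direction only, so counts over a list are read beside the same percentage over all genes. Lower RNA of a gene per cell and fewer cells making it cannot be told apart in such sums, and for several genes the cells were counted as well.

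Members of vehicle day 1 differed from control members in wound, glycolysis and chemokine genes. Of 1884 tested genes 183 (9.71%) were at least 2-fold higher and 159 (8.44%) at least 2-fold lower. With TMM scaling, which sets the reference from the trimmed mean of gene ratios, the same counts were 361 and 83. Among the matrix and wound response genes 6 of 9 tested were higher and 0 lower (median 2.16), among glycolysis and hypoxia genes 7 of 12 and 0 (median 1.48), and among alternative activation and lipid genes 5 of 8 and 0 (median 1.26). Monocyte identity genes outside the rule were higher in 8 of 18 and lower in 1 (median 0.67). Macrophage maturation genes were higher in 7 of 11 and lower in 1 (median 1.14). All 3 tested chemokine genes and 4 of 7 cytokine and inflammasome genes were higher, and 4 of 4 and 2 of 7 without dendritic and stromal marker cells. All 5 tested MHC class II genes, which present antigen to helper T cells, were lower (median -2.09). In these stricter members the glycolysis count was 7 of 12 (median 1.31), where 7.5% of all tested genes were higher, and the class II count 5 of 5 lower (median -1.65), where 5.25% were.

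*Thbs1*, a matrix protein that platelets and activated monocytes release, stood at 428 CPM in control. Its vehicle levels by day were 4984, 2885 and 630 CPM, and its entospletinib levels 2343, 441 and 1229 CPM. Vehicle day 1 and day 7 were its highest conditions, and its day 1 ratio over control was 3.32 (SD 0.97). Platelet transcripts in members moved with it in part. Platelet factor 4 (*Pf4*), which macrophages also make, had 0.972 CPM in control. Its vehicle pools stood at 105, 145 and 4.05 CPM by day and its entospletinib pools at 35.6, 12.6 and 4.39 CPM. The platelet chemokine *Ppbp* had 23.8, 20.4 and 0 CPM in the vehicle pools by day, and 3.08, 0.84 and 0 CPM in the entospletinib pools. The part of platelet RNA in the *Thbs1* differences was not tested at any day. The neutrophil-attracting chemokine *Cxcl2* had 29.1 CPM in control and 570 at vehicle day 1 (ratio 4.07, SD 1.46). Its control share was near that of other lineages, with 1.86% of members and 1.81% of other-lineage cells at equal depth. The complement receptor *C5ar1* went from 12.6 to 219 CPM (ratio 3.90, SD 1.39). Osteopontin (*Spp1*) went from 120 to 1002 CPM (ratio 2.84, SD 0.44), but at equal depth it was also found in 27.9% of cells of other lineages at vehicle day 1, against 36.5% of members. The metalloproteinase *Adam8* went from 59.3 to 509 CPM (2.89, SD 0.92) and the crosslinking enzyme *Tgm2* from 41.8 to 481 (3.31, SD 1.53). Dendritic cell genes moved the other way, with *Clec9a* at 320 CPM in control and 15.3 at vehicle day 1, and their part in the class II difference was not tested beyond the stricter set.

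HIF-1α (*Hif1a*) stood at 141 CPM in control. It stood at 647, 393 and 160 CPM at vehicle day 1, 7 and 14 and at 367, 193 and 299 CPM with entospletinib. The glucose transporter *Slc2a1* had 41.8 CPM in control. It had 208, 170 and 65.8 CPM in the vehicle pools by day and 123, 69.7 and 65.9 CPM in the entospletinib pools. Pyruvate kinase (*Pkm*) had 107 CPM in control, and 546, 312 and 123 CPM by day after vehicle, against 453, 163 and 250 CPM after entospletinib. All 3 genes were highest at vehicle day 1. The interleukin-1β gene *Il1b*, the best known cytokine of such monocytes, had 548 CPM in control. Vehicle pools had 1893, 1294 and 1043 CPM by day, and entospletinib pools 1246, 780 and 1322 CPM.

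Between day 1 and day 7 with vehicle, members moved toward higher *Vegfa* and lipid genes. Of 1742 tested genes 63 (3.62%) were at least 2-fold higher at day 7 and 32 (1.84%) lower, and with TMM scaling 43 and 65. The vascular growth factor *Vegfa* stood at 135 CPM at day 1 and 416 at day 7, and the cholesterol exporter *Abca1* at 354 and 848. Their relative ratios were 2.09 and 1.72. Lipoprotein lipase (*Lpl*, 93.1 and 293 CPM, ratio 2.11) and hexokinase 2 (*Hk2*, 127 and 213 CPM, ratio 1.20) stood higher as well. The TMM reference lay at -0.20, against -0.46 for the median gene, and *Hk2* was under 2-fold with it. In all, 4 of 9 tested alternative activation and lipid genes were at least 2-fold higher and 0 lower (median 0.72), and of 14 glycolysis and hypoxia genes 2 were higher (median 0.02).

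Several genes of blood monocytes stood lower at day 7. *Plac8* had 277 CPM at day 1 and 51.2 at day 7 (ratio -1.98). At equal depth 5.28% of members and 6.67% of other-lineage cells had it at day 7, so that level is not read as above other lineages. The antiviral membrane protein *Ifitm3* had 283 and 66.4 CPM (-1.63), the integrin chain *Itgal*, part of LFA-1, 233 and 58.0 (-1.54) and *Ly6e* 296 and 76.7 (-1.49). Of 17 tested monocyte identity genes outside the rule 3 were at least 2-fold lower and 0 higher. A few transcripts were also far higher at day 7 in all other cells of that pool. *Cdk8* had 43090 CPM in members and 32822 in other cells, against 6885 and 4002 at day 1, and *Lars2* 26087 and 23249 at day 7. Such genes are not read as features of monocytes.

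From day 7 to day 14 with vehicle the wound and hypoxia genes were lower again. Of 1618 tested genes 60 (3.71%) were at least 2-fold higher and 91 (5.62%) lower, and with TMM scaling 44 and 135. Glycolysis and hypoxia genes were lower in 6 of 11 (median -1.23), matrix and wound genes in 5 of 11 (median -0.89), and class II genes higher in 5 of 5 (median 1.33). Members with a dendritic marker count went from 12.2% to 27.5% between the same pools, and without dendritic and stromal marker cells class II genes were still higher in 5 of 5 (median 1.69). The cystine transporter *Slc7a11* went from 410 to 64.1 CPM (-2.83, SD 0.65). Matrix genes of fibroblasts also stood higher at day 14, and almost none of their RNA was left in the stricter members, from which dendritic and stromal marker cells are both absent. *Col12a1* had 6.48 CPM at day 7 and 248 at day 14, and tenascin C (*Tnc*) 1.62 and 229, while without the marker cells day 14 was at 0 and 1.86 CPM, although neither gene served to mark them. *Spp1* had 547 CPM with the marker cells and 197 without, and 278 of its 1621 counts in all day 14 members were in 1 cell. By day 14 only 60 of 1759 tested genes (3.41%) were at least 2-fold above control and 15 (0.853%) below, against 181 (10.9%) and 111 (6.66%) of 1667 at day 7.

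**Figure D3:**
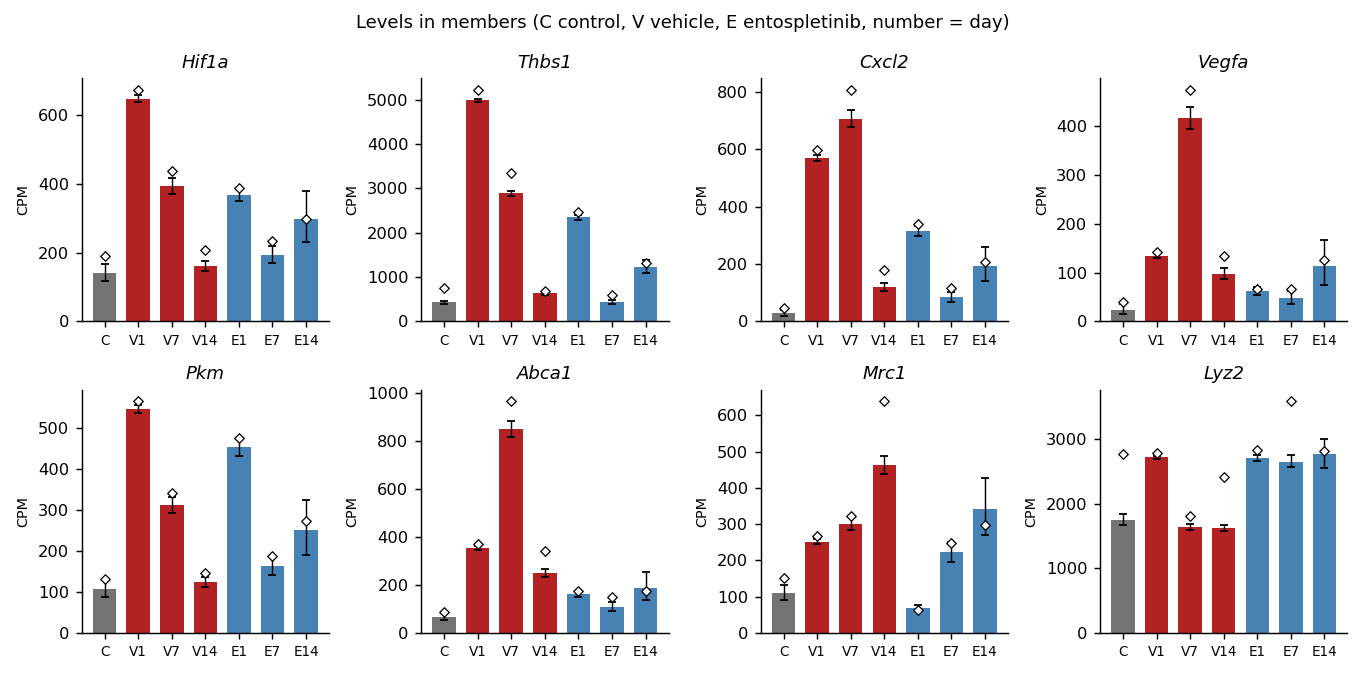
Levels in CPM of single genes in members (vertical axes), by condition (C control, V vehicle, E entospletinib, with the day). Bars are the level over all members of a condition, error bars its exact 95% counting interval, and diamonds the level without dendritic and stromal marker cells; *Thbs1* reaches 4984 CPM at vehicle day 1 and 441 CPM at entospletinib day 7.

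At day 1 entospletinib and vehicle members were close to each other, with lower *Mrc1* and *Dab2*. Of 1841 tested genes 10 (0.543%) were at least 2-fold higher with entospletinib and 3 (0.163%) lower, and with TMM scaling 4 and 15. Among the lower were the mannose receptor *Mrc1* (251 CPM with vehicle, 67.4 with entospletinib, ratio -1.65, SD 0.89) and the endocytic adaptor *Dab2* (617 and 254 CPM, -1.04, SD 0.30). Both were lower in all 8 sublibraries. *Mrc1* was found in 785 of 4204 vehicle and 93 of 1019 entospletinib members. The cyclooxygenase *Ptgs2* (550 and 246 CPM, -0.92), *Abca1* (354 and 162, -0.89) and the endoplasmic oxidase *Ero1a* (230 and 101, -0.94) were past 2-fold only with TMM scaling, at -1.13, -1.10 and -1.15. *Abca1* was found in a smaller share of members than of other-lineage cells in both pools. All 13 tested glycolysis and hypoxia genes lay below the median gene, with 0 past 2-fold (median -0.33).

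Higher with entospletinib at day 1 were *Saa3* (133 CPM with vehicle and 258 with entospletinib, ratio 1.20, SD 0.32), the actin-binding thymosin *Tmsb10* (255 and 434 CPM, 1.01, SD 0.09) and the chromatin protein *Hmgb2* (75.5 and 131 CPM, 1.04, SD 0.26). With TMM scaling the same ratios were 0.99, 0.80 and 0.83, all under 2-fold. *Saa3* was found in 1098 of 4204 vehicle and 305 of 1019 entospletinib members. *Peak1* had the highest ratio, with 5447 CPM against 392, but it stood at 4135 against 393 CPM in the other cells of these pools. Ribosomal RNA (*Rn18s-rs5*) stood at 218297 CPM in entospletinib and 118732 in vehicle members, and 24.5% and 6.97% of members had over 1.5% ribosomal protein gene counts. Among members under 1.5% the count past 2-fold was 9 higher and 3 lower, against 10 and 3 in all members. The part of the ribosomal RNA in the gene ratios was not tested.

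At day 7 the difference was far wider. Of 1720 tested genes 63 (3.66%) were at least 2-fold higher and 135 (7.85%) lower with entospletinib, and with TMM scaling 41 and 170. Among the lists, 8 of 11 tested glycolysis and hypoxia genes were lower and 0 higher (median -1.32), as were 4 of 9 matrix and wound genes (median -1.0), 4 of 8 alternative activation and lipid genes (median -1.03) and 6 of 12 macrophage maturation genes (median -1.06). Of 7 cytokine and inflammasome genes 3 were lower (median -0.93), as were 2 of 3 chemokine genes. Monocyte identity genes outside the rule were even, with 2 of 17 higher and 2 lower (median -0.11).

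*Vegfa* stood at 416 CPM with vehicle and 47.9 with entospletinib at day 7 (ratio -3.50, SD 1.05), *Cxcl2* at 707 and 84.0 (-3.46, SD 0.57), *Abca1* at 848 and 109 (-3.34, SD 0.52), and *Thbs1* at 2885 and 441 (-3.09, SD 0.53). The growth factor neuregulin 1 (*Nrg1*) stood at 592 and 52.0 CPM, *Pdpn* at 223 and 28.5, *Tgm2* at 473 and 63.8 and *Slc7a11* at 410 and 58.8. All of these were lower in all 8 sublibraries. At entospletinib day 7 *Vegfa* and *Abca1* were no more frequent in members than in other-lineage cells. Their levels there are not read as above those of other lineages. How far those lineages make such genes themselves was not tested.

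The glycolysis genes that were at least 2-fold lower at day 7 ran from uptake to pyruvate. They were *Slc2a1* (-1.67, lower in 7 of 8 sublibraries), *Hk2* (213 and 125 CPM, -1.15), glucose-6-phosphate isomerase (*Gpi1*, 183 and 91.5 CPM, -1.38), *Gapdh* (148 and 78.1 CPM, -1.30), enolase (*Eno1*, 165 and 52.0 CPM, -2.05) and *Pkm* (312 and 163 CPM, -1.32), with *Hif1a* (393 and 193 CPM, -1.40) and *Vegfa*. Among inflammatory genes, the inflammasome sensor *Nlrp3* stood at 297 and 119 CPM (-1.70, SD 0.39), *Ptgs2* at 348 and 128 (-1.83, SD 1.03) and *Il1b* at 1294 and 780 (-1.11, SD 0.28). *Syk* itself stood at 595 and 604 CPM (-0.36, SD 0.30). Of 16 tested genes of SYK receptors and signaling 3 were lower, the C-type lectins *Clec4d* (200 and 52.9 CPM, -2.30) and *Clec4e* (229 and 128 CPM, -1.21) and the adaptor protease *Malt1* (587 and 348 CPM, -1.13). The median of this list was 0.02, and 7.85% of all tested genes were lower.

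The stricter members gave much the same day 7 picture, although 30.6% of entospletinib and 12.3% of vehicle members were left out. Glycolysis and hypoxia genes were lower in 8 of 12 (median -1.26), matrix and wound genes in 5 of 10, and alternative activation and lipid genes in 4 of 8, while the SYK list had 1 of 17 lower, beside 7.75% lower and 4.4% higher over all tested genes. *Vegfa* stood at 474 and 66.5 CPM in these cells. In the other classes, 9.52% of tested genes were lower in neutrophils, 5.85% in nonclassical monocytes and 1.87% in C1q macrophages, but the entospletinib sums behind them held 184914, 176272 and 3503947 counts, and the shallow classes had the larger percentages. Glycolysis and hypoxia genes were lower in 8 of 16 in neutrophils (median -1.09), in 0 of 5 in nonclassical monocytes and in 0 of 1 in C1q macrophages, so the lower glycolysis RNA was not seen in inflammatory monocytes alone. Genes higher at day 7 with entospletinib included *Clec9a* (39.5 and 238 CPM, 2.21), the cyclin *Ccnd3* (127 and 531 CPM, 1.68) and *Plac8* (51.2 and 237 CPM, 1.83). The vehicle share of *Plac8*, given above, was below that of other lineages. *Clec9a* marks dendritic cells, and the higher share of members with such markers is given above.

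**Figure D4:**
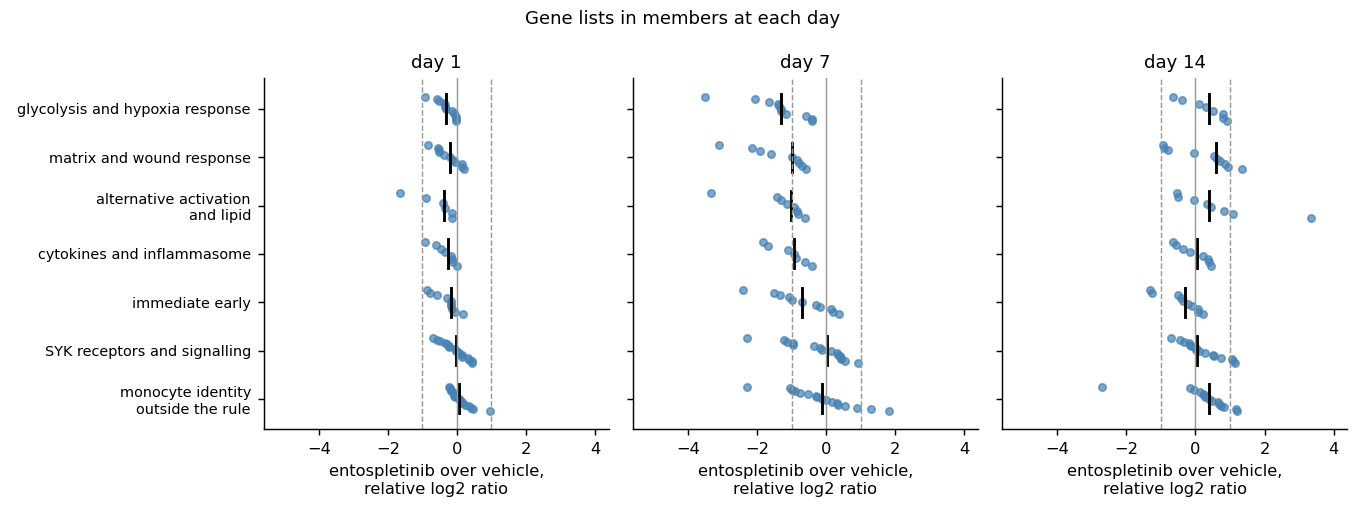
Relative log2 ratios of entospletinib over vehicle (horizontal axes) for the tested genes of each list (rows) at day 1, 7 and 14. Points are genes, black bars the list medians, 0 the median of all tested genes and dashed lines the 2-fold limits; the glycolysis and hypoxia median is -0.33 at day 1, -1.32 at day 7 and 0.40 at day 14.

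Promoters of 2 of these glycolysis genes are shown with the core of the hypoxia response element, ACGTG, in capitals (CACGT on the given strand where the match is on the other one). They are *Slc2a1* (chr4:119108495-119108794, + strand) and *Hk2* (chr6:82774405-82774704, - strand) from RefSeq on GRCm38.p6, 250 bases before to 50 after the start of transcription, written 5′ to 3′ in the direction of the gene.
Slc2a1: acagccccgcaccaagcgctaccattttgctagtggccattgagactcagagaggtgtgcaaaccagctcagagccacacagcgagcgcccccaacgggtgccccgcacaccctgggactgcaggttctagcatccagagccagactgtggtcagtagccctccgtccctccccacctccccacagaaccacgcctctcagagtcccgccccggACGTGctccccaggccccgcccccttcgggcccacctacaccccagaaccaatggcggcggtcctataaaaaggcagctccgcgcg
Hk2: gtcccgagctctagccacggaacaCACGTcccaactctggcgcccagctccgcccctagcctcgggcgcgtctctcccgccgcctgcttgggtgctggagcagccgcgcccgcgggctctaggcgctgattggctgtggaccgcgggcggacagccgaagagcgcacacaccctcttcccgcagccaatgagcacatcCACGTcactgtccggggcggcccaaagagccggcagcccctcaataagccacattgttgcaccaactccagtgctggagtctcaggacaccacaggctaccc
Of 26 genes in the glycolysis and hypoxia list 24 matched a promoter and 17 held ACGTG on either strand in at least 1 promoter. Among all 27025 genes with a promoter 5886 (21.8%) held it, and of 32851 promoters of this length 6447 (19.6%). Of the 8 list genes that were 2-fold lower at day 7, 6 held the motif. Among these 6, *Vegfa* and *Pkm* each also had a promoter without it. The list was drawn up from glycolysis and hypoxia genes, so its share beside that of all genes is not a test. A match is a description of letters in this window and not a bound site.

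Adhesion and recruitment genes, which guide monocytes out of vessels, gave 0 of 10 past 2-fold at day 1 (median -0.01) and 1 higher and 2 lower of 9 at day 7 (median 0.10). Immediate early genes, transcribed within minutes of a stimulus or of cell handling, gave 0 of 10 at day 1 (median -0.18) and 4 of 11 lower at day 7 (median -0.69), where 7.85% of all tested genes were lower. Among the 4 were *Nr4a2* (313 and 142 CPM, -1.52), *Fosb* (318 and 165, -1.33) and *Egr1* (127 and 78.9, -1.07). Only 2 of 18 interferon response genes passed the filter at day 7, of which 1 was higher. Of the 10 cell cycle genes at most 1 passed the filter in any comparison, so proliferation could not be described.

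At day 14 the entospletinib pool had 108 members, and its values were the least precise. Of 1759 tested genes 42 (2.39%) were at least 2-fold higher and 78 (4.43%) lower, and with TMM scaling 33 and 94. The 10 lowest ratios were largely of stromal and matrix genes, among them *Col12a1* (0 against 248 CPM), *Tnc* (0 against 229), *Col3a1* (13.2 against 211) and *Sparc* (26.3 against 216). More than 1 stromal marker count was found in 6.88% of vehicle and 0.926% of entospletinib members at day 14. Without dendritic and stromal marker cells 30 genes were higher and 62 lower. *Retnla*, a gene of alternative activation, had 211 CPM against 19.2 with vehicle, from 48 counts in 10 of 108 cells, of which 15 were in 1 cell. The glucocorticoid-induced chaperone *Fkbp5* had 303 against 50.3 CPM (ratio 2.48, SD 1.81), and in all other cells of these pools 468 against 75.1. The calcium-binding protein *S100a4* had 334 against 82.0 CPM (1.91, SD 0.55) and *F10* 202 against 73.2 (1.35, SD 0.88). Alternative activation and lipid genes were higher in 2 of 8 (median 0.39), glycolysis and hypoxia genes in 0 of 8 (median 0.40), and class II genes lower in 2 of 6 (median -0.97). Of the SYK receptor and signaling genes 3 of 16 were higher and 0 lower (median 0.05), namely the Fc receptor genes *Fcer1g* and *Fcgr3* and the lectin *Clec4e*, which was lower at day 7. Chemokine genes were higher in 1 of 3 (median 1.0), matrix and wound genes in 1 of 10 (median 0.58) and adhesion genes in 1 of 10 (median 0.46), with 0 lower in each. The transcription factor *Irf8*, which dendritic cells need, stood at 48.3 against 294 CPM, and 8.33% and 27.5% of members had dendritic markers.

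Across the 3 days, 1411 genes were tested each time, of which 255 were above the median gene with entospletinib at all 3 days and 268 below it. No gene was past 2-fold at all 3. Among the higher, the LIM protein *Crip1* had relative ratios of 0.91, 1.04 and 1.65 at day 1, 7 and 14, *Ccnd3* 0.74, 1.68 and 0.97, *S100a4* 0.77, 0.55 and 1.91, and *Ifitm3* 0.55, 1.31 and 1.12. The nuclear receptor *Nr4a3* (-0.78, -0.99 and -1.31), the activation marker *Cd83* (-0.67, -0.75 and -1.36), *Nlrp3* (-0.60, -1.70 and -0.64) and *Mrc1* (-1.65, -0.82 and -0.54) were lower. At day 14 their SDs were 1.66, 0.23, 1.42 and 1.39, with 6, 8, 6 and 5 of 8 sublibraries lower. In edgeR's quasi-likelihood test over the 6 injured pools, with day and treatment in the model, 0 of 11638 genes passed an adjusted p of 0.05, 699 (6.01%) had an unadjusted p under 0.05, and DESeq2 called 0 of 6825 as well. With no filter on low counts edgeR called 146 genes, and without day 7 it called 28. The lowest adjusted p in edgeR was 0.716, with *Nr4a3* (log2 -1.07, SE 0.18) and *Crip1* (1.12, SE 0.22) among the genes at it. The test of a different drug effect in inflammatory monocytes and C1q macrophages called 0 of 12913 genes in edgeR, with 514 (3.98%) at an unadjusted p under 0.05 and a lowest adjusted p of 0.067.

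To set shares of cells with a count side by side, cells with at least 1000 counts were thinned to that number and shallower ones left out, and the same was done in cells of other lineages (at least 4 counts of *Flt1*, *Pax5*, *Themis* and *Slc12a1* together and at most 1 of the monocyte genes), whose median depths were 1314 to 3349 counts across conditions. At most 7 members of a condition were shallower, and at entospletinib day 14 103 of 108 members and 676 of 948 other-lineage cells were kept. *Thbs1* (chr2:118111876-118127133, + strand, GRCm38, protein coding) was found in 14.0% of control members, in 77.2%, 58.6% and 23.5% of vehicle members at day 1, 7 and 14, and in 57.1%, 21.5% and 35.0% of entospletinib members, against 2.81% to 11.8% of the other-lineage cells by condition, highest at vehicle day 1. Without thinning its shares were 24.7% in control, 87.3%, 70.9% and 36.3% after vehicle, and 71.4%, 30.6% and 41.7% after entospletinib. *Hif1a* was found in 42.6%, 34.0% and 14.2% of vehicle and 28.7%, 15.0% and 21.4% of entospletinib members, against 7.25% to 13.6% in other lineages. At vehicle day 14 the other-lineage share of *Hif1a* was 13.6%, close to the 14.2% of members, so its share there is not read as above other lineages. *Mrc1* had its highest share at vehicle day 14, at 29.7%, and its lowest at entospletinib day 1, at 4.0%, against 5.69% and 1.27% in other lineages of the same pools. *Saa3* was found in 9.6% of vehicle and 17.4% of entospletinib members at day 1, and in at most 1.0% at any other time, against at most 0.423% in other lineages. *Lyz2*, a gene of all monocytes and macrophages, was found in 58.6% to 83.8% of members across conditions, against 3.85% to 9.20%. Other genes were near or below the other-lineage share. *Spp1* was found in 12.6% of members and 12.4% of other-lineage cells in control, in 36.5% and 27.9% at vehicle day 1 and in 29.1% and 31.0% at entospletinib day 1. *Abca1* was found in 41.4% and 15.3% at vehicle day 7, but in 22.5% and 29.5% at vehicle day 1, 12.6% and 24.8% at entospletinib day 1 and 6.19% and 11.2% at entospletinib day 7. *Vegfa* was found in 24.9% and 3.92% at vehicle day 7 and in 2.93% and 3.33% at entospletinib day 7.

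Doublets and neutrophil RNA were counted beside these values. Simulated-neighbor scores marked 10.2%, 11% and 15.2% of members as likely doublets with vehicle at day 1, 7 and 14. In all cells of these pools they marked 9.19%, 11.3% and 14.1%. With entospletinib they marked 3.73%, 6.84% and 3.70% of members and 6.10%, 9.69% and 4.09% of all cells by day. Over the whole series 9.46% of cells were marked, and marked cells were kept. More than 2 counts of neutrophil markers were found in 20.7% of vehicle and 17.3% of entospletinib members at day 1 and in at most 5.58% elsewhere, and 84 members also met the rule for neutrophils. Without the marked doublets the entospletinib share ratios were -1.31, -1.26 and -2.10 by day, with 12, 202 and 124 genes past 2-fold against 13, 198 and 120 in all members. Without members with more than 2 neutrophil marker counts they were -1.30, -1.26 and -2.06, with 16, 197 and 132 genes.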

How the data were processed

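The 8 deposited samples were technical sublibraries of 1 combinatorially barcoded leukocyte preparation (Parse Evercode), each holding cells of all 7 conditions, and the condition of a cell came from the deposited cell table. The authors excluded dead cells by viability dye, gated leukocytes by scatter, and processed reads with the Parse pipeline against mm10. The deposited matrix held counts, whole transcripts per gene and cell with no normalization by the authors: 388617036 over 57010 genes and 120281 barcodes. The release of the gene annotation was not given in the sources used here.

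Cells with more than 300 genes, under 20000 counts and under 25% mitochondrial counts were kept. Members and gene lists were chosen with earlier results of these data known. Member counts were summed per condition. Genes whose mean reached 100 CPM were tested, and relative log2 ratios past 1 counted as 2-fold. For the SD of a ratio, 0.5 counts were added per sublibrary, and directions were counted without them. Named genes were up to 6 per list with the highest CPM or ratio, the 10 highest and 10 lowest ratios per comparison with 1 direction in at least 6 of 8 sublibraries, and the 10 each way most alike at all 3 days. Other names were chosen after their values were seen. Pools of the 6 injured conditions were fitted with edgeR (filterByExpr, TMM, Benjamini-Hochberg). It recovered 200 of 200 genes changed 4-fold in simulated counts for the treatment comparison. These counts had no day effect, a fixed dispersion and the same change at every day, in genes above a minimum count. They do not show what the fit can find among effects that differ by day. DESeq2, other thresholds, scalings and thinning to 1000 counts were alternatives. Members were not clustered, and doublets were scored against simulated cell pairs and kept. Depth per condition is given with the members and limits rare genes most at entospletinib day 14. Coordinates are from GENCODE vM21. Software was Python 3.11.15, numpy 2.4.6, scipy 1.17.1, pandas 2.3.3, matplotlib 3.10.9, R 4.3.3, edgeR 4.0.16 and DESeq2 1.42.0. Results for 1 gene of the fixed lists and markers are not reported here, and its list was counted without it.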

Additional observations from a re-analysis of the deposited data

Results flagged for a closer look

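In 3 of 35 sets of 8 sublibraries 1 sublibrary stood far from the other 7, where chance alone gives about 1 in 20. These were *Thbs1* at entospletinib day 7 (892 CPM in that sublibrary) and *Vegfa* in control (110 CPM) and at entospletinib day 14 (290.0 CPM). All 3 lie in the pools with the fewest members.

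The entospletinib ratio had opposite directions at different days, in all 8 sublibraries each, for several genes, and this difference between days was not tested. Coagulation factor *F10* had -1.92 at day 7 and 1.35 at day 14. *Irf8* was higher at day 7 (1.30) and lower at day 14 (-2.72), and *Tgfbi* had 0.15 at day 1 and -0.85 at day 7, although with TMM scaling its day 1 ratio was -0.06, no longer opposite to day 7. Of the transcripts that also differed in other cells, the ratios by day were 1.29, -1.29 and 1.31 for *Cdk8*, 3.03, -1.48 and 1.92 for *Il31ra*, and 0.57, -1.70 and -1.28 for *Lars2*, while *Peak1* had 4.04 at day 1 and -0.83 at day 7.

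Among barcodes outside the limits on genes, counts or mitochondrial share, 63 of 29426 (0.214%) met the rest of the rule. Their share was highest at vehicle day 1, with 20 of 1463 (1.37%) against 12 of 9074 (0.132%) in control.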

How the results depend on the processing

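The share ratios of inflammatory monocytes kept their direction under every alternative run, while that of C1q macrophages at day 14 (-2.72) was 0.29 with 0.2% of a cell's counts and -0.24 after thinning. For vehicle day 1 over control the log2 ratio was 2.50 with a threshold of 4 counts, 4.54 with 10, 3.90 with 0.2% of a cell's counts, 3.81 without dendritic and stromal marker cells and 2.65 when cells with at least 1000 counts were thinned to that depth and held to 2 counts, the setting called thinning here, which keeps 5547 of 12144 entospletinib day 14 cells. For entospletinib over vehicle it was -1.17, -1.61 and -1.06 at day 1 with 4 counts, 10 counts and thinning. At day 7 it was -0.97 with 4 counts, -1.65 with 10, -0.99 among cells with a *Ptprc* count and -1.64 without marker cells. At day 14 it was -0.43 with 0.2%, -1.58 with over 500 genes per cell and -0.94 after thinning.

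Counts of genes past 2-fold followed the level minimum of 50 or 200 CPM, with 589 and 155 for vehicle day 1 over control, 526 and 130 for day 7, 189 and 28 for day 14, 169 and 41 for day 7 over day 1, 310 and 53 for day 14 over day 7, and 361 and 85 at day 7 and 323 and 41 at day 14 for entospletinib over vehicle. With 10 counts as threshold they were 157 for vehicle day 14 over control and 192 for entospletinib day 14. edgeR across days called 146 genes with no filter, and leaving out 1 day gave 0 to 28, with 28 (16 higher, 12 lower) without day 7 and 0 without day 1 or 14; the cause was not tested. The interaction called 5 genes with DESeq2 size factors. Depth limits what can be said of entospletinib day 14, where 108 members held 227771 counts, so a gene at 100 CPM rests on few counts there. Of 172 gene ratios recomputed, none of the 128 past 2-fold changed direction under the alternatives, and of the smaller ones named here that of *Tgfbi* at day 1 did with TMM scaling (-0.06). No analysis paired by the replicate numbers of the samples was possible, because they name sublibraries that hold every condition. The pools were paired by day in the sign-flip test, and day was a term in edgeR. The stricter members and the depth alternatives of C1q macrophages were added after seeing the data.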
